A study of Mus musculus with 192 samples.

Results

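Transcript-end windows are 150-bp start-site windows that the deposited GENCODE annotation places from 100 bp before to 1000 bp after the annotated end of a transcript, with no GENCODE start close by. They were selected as the windows whose annotation begins with TTS. There were 73958 of them among 553094 windows (13.4%), and they named transcripts of 8313 genes. Start-site sequencing reads the 5′ ends of RNA, so a peak in such a window is an RNA 5′ end mapped near a transcript's annotated end. That end can lie inside the gene, and RefSeq placed many of these windows in exons and some in introns. Below, a gene's ends are the annotated ends of its named transcripts.

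The cells were single mouse embryonic fibroblasts (MEFs) of strain C57BL/6, which are connective-tissue cells grown out of embryos. Every cell had received 100 U/ml of IFN-beta, a secreted antiviral protein, for 1 h. By title, 96 cells were Naïve-1h (pretreatment Naive) and 96 were Preteated-1h, called pretreated here. The agent of the pretreatment is not named in the labels, nor is any animal or culture, and these data include no group without IFN-beta. Each group therefore counted as 1 sample, no difference was tested, and every interval covers counting error only.

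Transcription of most mammalian genes starts at a promoter upstream of the first exon, and the transcript is cut and polyadenylated at its end. Methods that read RNA 5′ ends are known to find sites away from promoters as well, inside exons and in 3′ untranslated regions (3′ UTRs). Interferon binds a cell-surface receptor and acts through STAT and IRF transcription factors on a set of antiviral genes. Several of those genes are described below by the peaks at their ends.

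After cells of very low depth were left out, 92 naïve and 85 pretreated cells remained, with 305066 to 3857034 tags per naïve cell and 502374 to 13174313 per pretreated cell. A tag is taken here as a read, because no molecular identifiers are mentioned. Whether several tags can come from the same molecule is not known. Of 13 fibroblast markers, 11 were listed in both groups and 8 in over 50% of the cells of both, while the collagen-binding proteoglycan gene Lum was listed in neither. Of 14 markers of haematopoietic, endothelial, epithelial and pluripotent cells, 11 were listed in neither group. Their summed level was 8.28 tags per 1000000 total tags (CPM) in naïve and 3.98 in pretreated cells, against 3370 and 3772 for the fibroblast markers.

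Sequences around 7 named windows are shown because they are the windows chosen by the naming rule whose centre could be placed on a transcript. Each line gives 24 bases on the strand of the peak, 5′ to 3′, and the capitals mark the 3 bases directly before the centre of the window. Coordinates are those of the deposited mm9 tables, and bases come from GENCODE vM21 transcripts of the same version.
Pold2 window, Aebp1 transcript, chr11:5771656-5771805, + strand: acagagtatGGGactgacctagag
Tubb5, chr17:35972744-35972893, - strand: ctctggcatGGGcaccctgctcat
Rps19, chr7:25673855-25674004, + strand: tttgtacagGGGccgcaagctgac
Rex1bd, chr8:73029652-73029801, - strand: gagttggcaGGGcctcgagcgcaa
Slc25a5, chrX:34338417-34338566, + strand: cagaggcatGGGtggcgcctttgt
Lmnb2 window, Timm13 transcript, chr10:80363446-80363595, - strand: gtatggtcgGTGtgcgcgaccgtg
Lmnb2 window, Timm13 transcript, chr10:80363464-80363613, - strand: cggcttggcTTCcggggcgtatgg
The first 5 have GGG directly before the centre, and the 2 windows within the Timm13 transcript do not.

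GGG before the centre was frequent among all transcript-end positions that could be placed. It stood there at 2985 of 27001 placed positions (11.1%, exact binomial interval 10.7 to 11.4), which held 21.2% of their tags. Over all positions of the same 4182 transcripts, GGG preceded 1.68%. Only the strand of the peak was searched, only these 3 letters were counted, and 32.6% of the transcript-end positions could be placed. The share was 31.02% among positions listed by at least 3 cells and 9.09% among positions listed by 1 cell. Exon windows gave similar values, 10.6% overall and 27.2% at 3 or more cells. Promoter windows gave 7.93% overall and 9.16% at 3 or more cells, so there the share hardly moved with the number of cells.

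The base before the centre also differed between the groups. GGG preceded 16.8% of the naïve transcript-end positions (interval 16.2 to 17.5) and 8.64% of the pretreated ones (8.22 to 9.07). A single G preceded 77.6% of naïve and 51.5% of pretreated positions, and 67.7% and 54.1% of promoter positions. Exon positions were close to transcript ends, with a G before 77.5% and 51.8% and GGG before 15.6% and 7.90%. Over all positions of the same transcripts, G preceded 25.3%. At the centre itself, G made up 9.49% of naïve and 24.9% of pretreated transcript-end positions, and A made up 37.7% and 24.7%. Some positions were listed by at least 3 cells, counted over both groups together. GGG preceded 34.9% of those listed in naïve cells and 29.8% of those listed in pretreated cells. A position listed in both groups entered both values, so they do not compare recurrence within each group. How the 5′ ends were captured is not given in the sources used here, and its part in these values was not tested.

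Transcript-end windows held 11092338 naïve tags, 5.46% of all tags (exact binomial interval 5.453 to 5.459), and 13101936 pretreated tags, 4.57% (4.566 to 4.571). Per cell the share ran from 4.10 to 9.37% with a median of 5.52% in naïve cells. It ran from 2.81 to 11.9% with a median of 4.42% in pretreated cells, so the cells of the groups overlapped widely. In peaks the order was the other way round: transcript ends made up 10.02% of naïve and 10.8% of pretreated peaks, with medians of 520.5 and 699 peaks per cell. At promoter windows the shares were 59.9 and 63.1%, at exon windows 12.5 and 10.7%, at intron windows 7.76 and 4.01%, and at intergenic windows 3.83 and 2.20%.

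**Figure D1:**
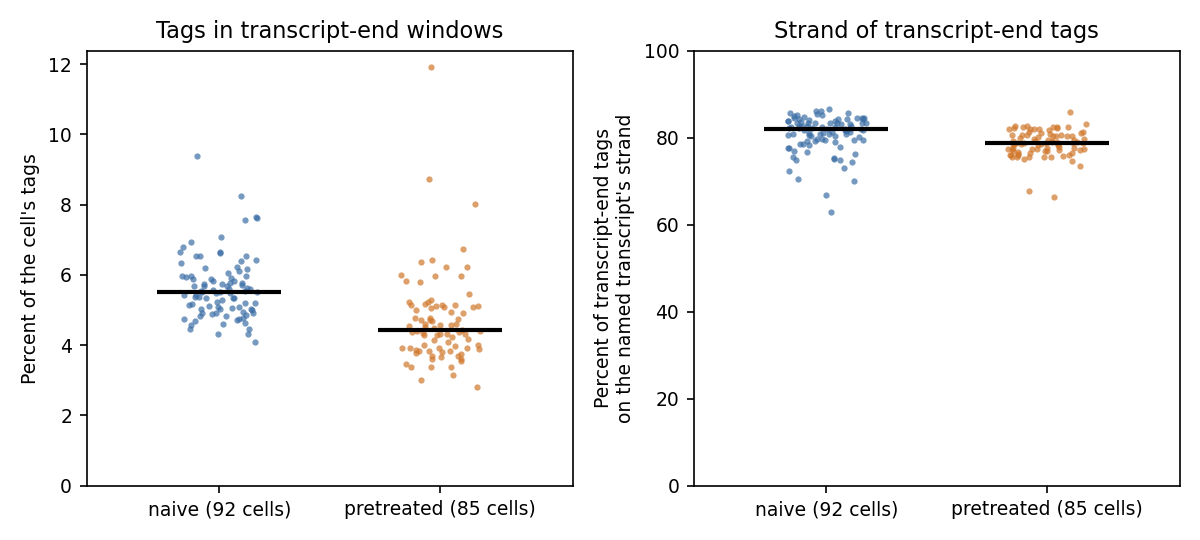
Percent of each cell's tags in transcript-end windows (left) and percent of those tags on the strand of the named transcript (right), 1 point per cell, with the group median as a bar. The medians are 5.52% of tags in naïve and 4.42% in pretreated cells, and 81.9% and 78.8% on the named strand.

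Transcripts in near-identical repeated sequence held very different shares in the groups. Windows of ENSMUST00000062783 held 1124919 naïve tags (10.1% of transcript-end tags) and 261756 pretreated tags (1.998%). Those described below lay in a non-coding RNA by RefSeq, 4575 and 4987 bp past the start of the ribosomal RNA gene Rn45s. Windows of ENSMUST00000164707 on chromosome 1 were listed at 0 in naïve cells and held 636409 tags in 85 of 85 pretreated cells (4.86%). Without these transcripts, transcript ends held 4.90% of naïve and 4.25% of pretreated tags. The neighbouring transcript in the GENCODE table is the pseudogene Gm10222, 100% of whose 50-base words also occur in the mitochondrial gene mt-Nd4l. Peaks on the mitochondrial chromosome itself numbered 1287 in naïve cells, with 1390011 tags in 92 of 92 cells, and 0 in pretreated cells. Unplaced or random sequence held 393 naïve peaks, with 59521 tags in 91 cells, and 0 pretreated peaks. The pretreatment and a difference in how the files of the groups were made cannot be told apart for these sequences. Whether such a difference reaches other windows was not tested.

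Most windows were seen in a single cell. Of the 73958 windows, 72662 were listed by a kept cell, 58729 of these (80.8%) by 1 cell, and 6457 (8.89%) by cells of both groups. The other 1296 were listed by no kept cell. At least 20% of the cells listed 96 windows in the naïve and 77 in the pretreated group. A cell without a listed peak is not shown to lack the RNA, because peaks had to pass the caller's minimum.

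Peaks lay mainly on the strand of the transcript whose end they marked. In naïve cells 80.9% of the tags with a known strand were on that strand (cells 62.99 to 86.7%, median 81.9%). In pretreated cells it was 78.9% (66.3 to 85.9%, median 78.8%). By peaks the shares were 79.4 and 76.4%. The strand was unknown for 18.8% of naïve and 16.98% of pretreated tags, among them those of both repeated-sequence transcripts. On the named strand, RefSeq placed 29.4% of naïve tags in a 3′ UTR, 40.6% in an exon and 17.6% at a transcript end. Opposite to the named transcript, RefSeq placed 66.4% of naïve and 70.7% of pretreated tags at a transcript end. A RefSeq transcript on the strand of the peak was named for 90.6% of same-strand peaks in each group, and for 16.7% of naïve and 14.2% of pretreated opposite-strand peaks. The strand share differed with the kind of transcript: 75.4% of naïve tags lay on the named strand at protein-coding transcripts, 98.6% at small nucleolar RNAs (snoRNAs, which guide RNA modification) and 15.8% at antisense transcripts. The pretreated values were 68.8, 96.7 and 8.85%. A single window, at Snora75, held 184475 of the 328055 naïve and 89868 of the 224862 pretreated snoRNA tags. By peaks, 95.5% of naïve and 89.6% of pretreated snoRNA peaks lay on the named strand.

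The peaks on either strand lay at different distances from the end. The centre could be placed against the end of the named transcript at 27532 same-strand positions, with a median of 295 bp after the end (quartiles 41 and 618), and 18.9% lay before it. At 4615 opposite-strand positions the median was 521 bp after the end (234.5 and 748), and 7.67% lay before it. Positions 100 bp or less after the end made up 12.6% of the same-strand and 7.17% of the opposite-strand positions. Positions at one transcript share their source, so these distances are given with no test.

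**Figure D2:**
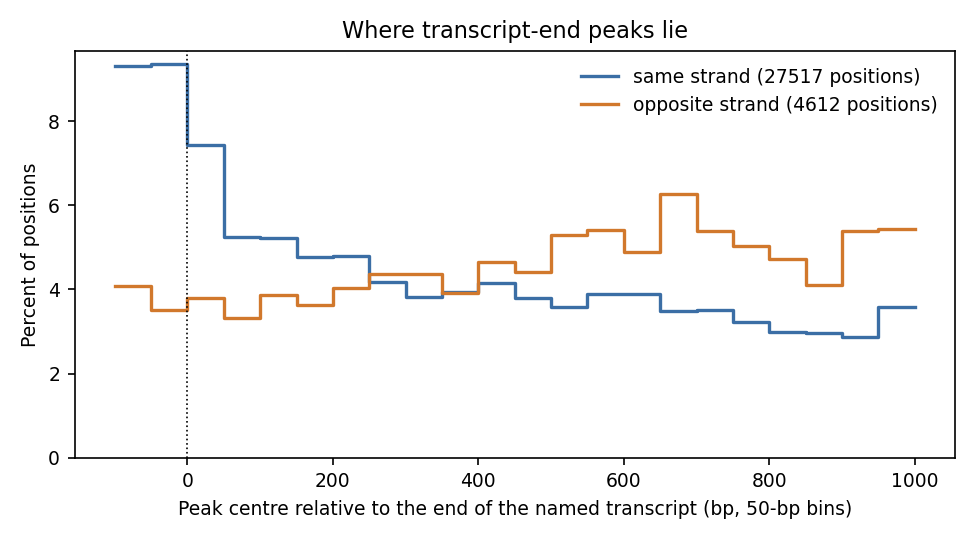
Distance from the end of the named transcript to the peak centre in bp, in 50-bp bins, as a percent of placed positions on the same and on the opposite strand; positive values lie after the end. Same-strand positions are most frequent just before and at the end, with a median of 295 bp, and opposite-strand positions have a median of 521 bp.

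A RefSeq start lay within 100 bp of 153 transcript-end windows (0.207%, exact binomial interval 0.175 to 0.242). It did so for 55.7% of promoter, 0.678% of exon, 0.351% of intron and 2.13% of intergenic windows. Of the 153 windows, 16 lay 91 to 100 bp from the start, and 59 other windows lay at 101 to 110 bp, just outside. A UCSC start was this close to 378 windows, and either kind of start to 453. The 153 windows held 90439 naïve tags, 0.815% of transcript-end tags, and 158207 pretreated tags, 1.21%. The focus ratio is HOMER's value from 0 to 1 for how far the tags of a peak gather at its centre. Its median was 0.952 in naïve and 0.912 in pretreated cells. In windows without such a start it was 0.976 and 0.967.

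These peaks followed the RefSeq gene's strand. They were counted per window and strand, so a window listed on both strands, such as a Thrap3 window, counts on each. By this count 139 were on the strand of that gene, 13 opposite and 1 unknown. The 139 held 98.2% of the naïve and 98.5% of the pretreated tags. They belonged to 44 RefSeq genes. Praf2, which codes for a membrane protein of the prenylated Rab acceptor family, led them: 14 windows annotated as the end of Wdr45 lay within 27 bp of its start. They held 35927 naïve and 104883 pretreated tags, or 177 and 366 CPM. Clic1, a chloride intracellular channel gene, had 18 such windows with 100.7 and 39.8 CPM. Tmsb10, coding for an actin-monomer-binding thymosin, had 10 windows with 34.03 and 30.55 CPM. Eif4e, coding for the cap-binding translation initiation factor, had 6 windows with 17.7 and 22.6 CPM. Of the Praf2 words of 50 bases, 35.8% also occur in the annotated genes Gm45208 and Gm18032. Gm45208 also holds 16.9% of the Wdr45 words. These words cover the whole gene, and whether reads at the Praf2 start could be told apart was not tested.

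The RefSeq table of promoter sequences (build GRCm38.p6) held 19 of the 44 genes. The starts of 4 of the leading genes are shown as the annotated starts that the GENCODE annotation files under a neighbour's end; each line gives 30 bases, and the capital marks the annotated first base of the RNA.
Praf2: ccttcgggctggtccAgcaacccgcaggat
Clic1: aacaggagggaccgaGgtggagcagctggg
Tmsb10: cacacccacaaccctAcaccacacatacat
Eif4e: tgctaaaacagcagcGgaggcggagggagc

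Peaks at transcript ends had high focus ratios. Their median focus ratio was 0.976 in naïve and 0.967 in pretreated cells, against 0.959 and 0.902 at promoters, 0.978 and 0.970 in exons, 0.983 and 0.980 in introns, and 0.983 and 0.978 in intergenic windows. Within a cell, the transcript-end median lay above the promoter median in 91 of 92 naïve and 85 of 85 pretreated cells. It lay below the intron median in 91 of 92 and 85 of 85 cells, and below the exon median in 57 and 70 cells. The number of tags in a peak moved with the ratio: among naïve peaks of up to 50 tags the medians were 0.951 at ends and 0.938 at promoters, and over 500 tags they were 0.989 and 0.952. Among pretreated peaks they were 0.962 and 0.941 up to 50 tags, and 0.941 and 0.848 over 500 tags. Same-strand and opposite-strand peaks had medians of 0.977 and 0.974 in naïve and 0.967 and 0.964 in pretreated cells.

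**Figure D3:**
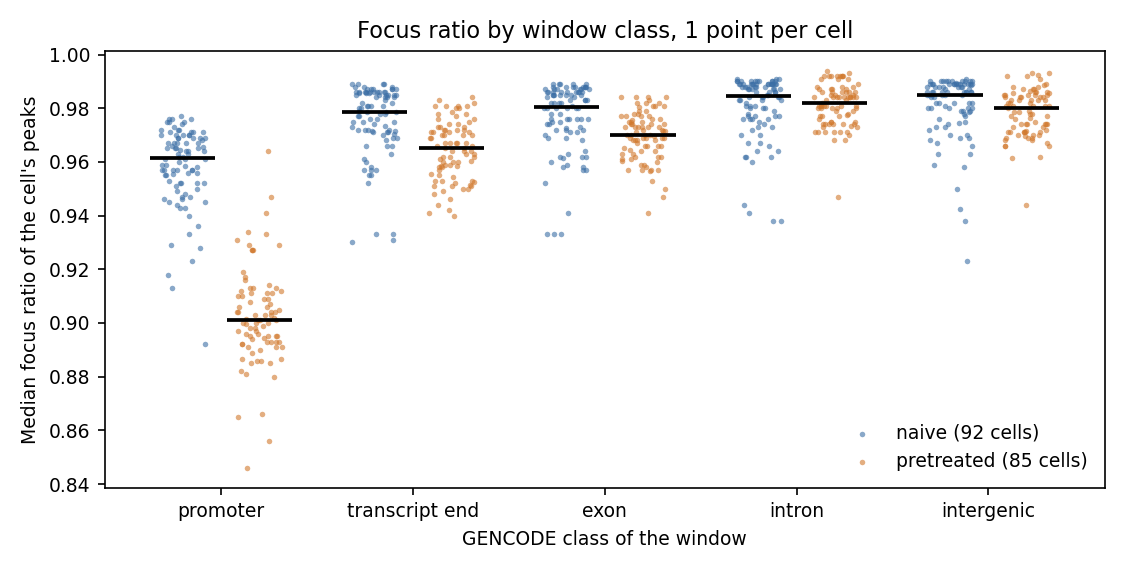
Median focus ratio of each cell's peaks by window class, 1 point per cell, with the median over cells as a bar; the axis does not start at 0. Transcript-end medians lie above promoter medians in 91 of 92 naïve and 85 of 85 pretreated cells.

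The window with the most tags was chr17:39984855-39985004 on the - strand, at the end of ENSMUST00000062783 and opposite to the strand of Rn45s. All 92 naïve cells listed it, from 374 to 9663 CPM with a median of 4497, and 6 pretreated cells did, from 333 to 791 CPM. The group values were 4734 and 27.4 CPM. On the + strand, that of Rn45s, the window at chr17:39984443-39984592 was listed by 13 naïve and 79 pretreated cells, with 111 and 399 CPM. Next came chr1:24620738-24620887 on the - strand, at the end of ENSMUST00000164707. It was listed by 0 of 92 naïve cells (up to 3.93% allowed by the interval) and 84 of 85 pretreated cells, with a median of 2178 CPM in those cells.

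Actb, the cytoplasmic actin gene, had tags on both strands at the end of a named transcript. On its own strand, chr5:143666275-143666424 was listed by 79 of 92 naïve cells, from 85.2 to 6498 CPM with a median of 1824, and by 0 of 85 pretreated cells. On the opposite strand, chr5:143666330-143666479 was listed by 53 naïve cells (median 120 CPM in those cells) and 85 of 85 pretreated cells (median 131 CPM). Its median focus ratio was 0.139 in naïve and 0.969 in pretreated cells. RefSeq placed both windows in an Actb exon, and 9.12% of the gene's 50-base words occur in other genes. The peaks within 50 bp of the first window held 388758 naïve and 245 pretreated tags.

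Other windows with many tags were filed at genes on their own strand. The Snora75 window, filed at the end of a snoRNA gene that lies within Ncl, the nucleolin gene, was listed by 84 naïve and 71 pretreated cells. It had 907 and 313 CPM. All 84 Snora75 words of 50 bases also occur in other genes, Ncl among them (100%). The window lay 424 bp past the Snora75 start, beyond the reach of these words, so they do not describe its reads. The Lrp1 window, in the 3′ UTR of a lipoprotein receptor gene, was listed by 48 and 79 cells, with 222 and 664 CPM. The Lmna window, in the 3′ UTR of the nuclear lamin A/C gene, was listed by 25 and 42 cells, with 146 and 470 CPM. The Lmnb2 windows printed above, filed at the end of the lamin B2 gene, lay 194 and 176 bp past the start of Timm13, a mitochondrial import gene on the same strand. They had 342 and 136 CPM in naïve cells and 450 and 410 CPM in pretreated cells.

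Among windows opposite to a transcript of known strand and with no RefSeq start near, the one with the highest mean of the group values was filed at the end of Pold2, a DNA polymerase subunit gene. It lay in the transcript of Aebp1 on the strand of the peak. It was listed by 27 of 92 naïve cells (29.3%, interval 20.3 to 39.8) and 68 of 85 pretreated cells (80%, 69.9 to 87.9), with 114 and 291 CPM. The windows at Tmem120a, Nr1i3 and Ercc1 were listed by 10, 21 and 29 naïve and by 4, 4 and 8 pretreated cells. The highest naïve cell reached 8830 CPM at Tmem120a against a group value of 303 CPM, and the log2 ratio of -2.94 became -4.73 without pretreated cell 40. At Nr1i3 1 pretreated cell gave 47.5% of the group's tags, and the ratio of -1.25 became -2.16 without pretreated cell 56 and -0.97 without naïve cell 22.

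In the comparison of pretreated with naïve cells, windows counted if they reached 10 CPM in either group and were listed by at least 20% of the cells of either group. A window was called when the groups differed by over 2-fold. Of 126 transcript-end windows, 43 were higher and 64 lower in pretreated cells, or 107 called, while over all classes 68.3% of 2977 windows were called, 34.6% higher and 33.7% lower. Called members thus made up a larger share here than over all classes, and more of them were lower. Of the 2977 windows, however, 2314 were promoter windows, with 815 higher and 662 lower. Of 287 exon windows, 224 were called, 96 higher and 128 lower, so the lean to lower was not particular to transcript ends. The median log2 ratio was -0.45 over the 107 transcript-end windows listed in both groups. It was -0.26 over such exon windows and 0.36 over all such windows. With that 0.36 taken off every ratio, 38 transcript-end windows were higher and 66 lower. In naïve cells alone 14 transcript-end windows were listed, and in pretreated cells alone 5, against 12.3% and 5.01% of windows of all classes.

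The windows with the lowest and highest ratios were mostly listed by a few cells of one group. The Elane window, at the end of the neutrophil elastase gene and on its strand, was listed by 42 naïve cells and 1 pretreated cell, with 55.6 and 0.237 CPM. The window at Rpl13-ps1, a ribosomal protein pseudogene inside a Usp32 intron and on the other strand, was listed by 66 and 1 cells. The windows of Slc25a5, a mitochondrial ADP/ATP carrier gene, and Tubb5, a tubulin gene, were listed by 24 and 34 naïve cells and by 1 and 4 pretreated cells. In the other direction, the Srpk1 window was listed by 5 and 55 cells, the Tmbim6 window by 4 and 31, the Tpm1 window by 1 and 28, and the Rex1bd window by 1 and 20 cells. The Srpk1, Tmbim6 and Tpm1 peaks lay opposite to the named transcript, and the Rex1bd peak lay on its strand. The Tmbim6 ratio of 4.18 became 4.89 without naïve cell 6. For Slc25a5, 33.8% of the 50-base words occur in other genes, for Srpk1 2.55%, and for Tubb5, Tmbim6, Tpm1 and Rex1bd under 1%.

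Peaks a few bases apart fall in different windows, so peaks of a strand within 50 bp of each other were also joined into sites. By sites, 544 passed the filter at transcript ends, 192 higher and 110 lower, or 302 called, and the median log2 ratio was 0.38. Over all 6533 sites 47.3% were called, 31% higher and 16.3% lower, with a median of 0.44. The sign of the transcript-end median thus differed between windows and sites, and 10 sites were listed in naïve cells alone and 7 in pretreated cells alone, against 3.23% and 1.42% of all sites.

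Interferon-responsive genes held more end tags in pretreated than in naïve cells. Of the 83 genes on the list, 60 had tags at an end on their own strand. Over all of them, the cells held 0 to 1938 CPM at the ends with a median of 201 in naïve cells, and 457 to 3448 CPM with a median of 959 in pretreated cells, so the groups overlapped. At promoter windows of the list the cell medians were 7609 and 22349 CPM. Summed per gene, 22 passed the same filter at their ends, and 18 of these were over 2-fold higher and 0 lower in pretreated cells. Over all 560 gene ends that passed, 22.5% were higher and 22.5% lower, 45% in either direction. Passing through the pretreated group alone favours a higher ratio without setting its size, so the 22 do not stand for the whole list. With the shift of 0.36 over all windows taken off every ratio, 17 of the 22 were higher and 2 lower, against 15% higher and 30.9% lower of all gene ends. Adar then was no longer called, and Eif2ak2 and Irf9 were called lower.

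**Figure D4:**
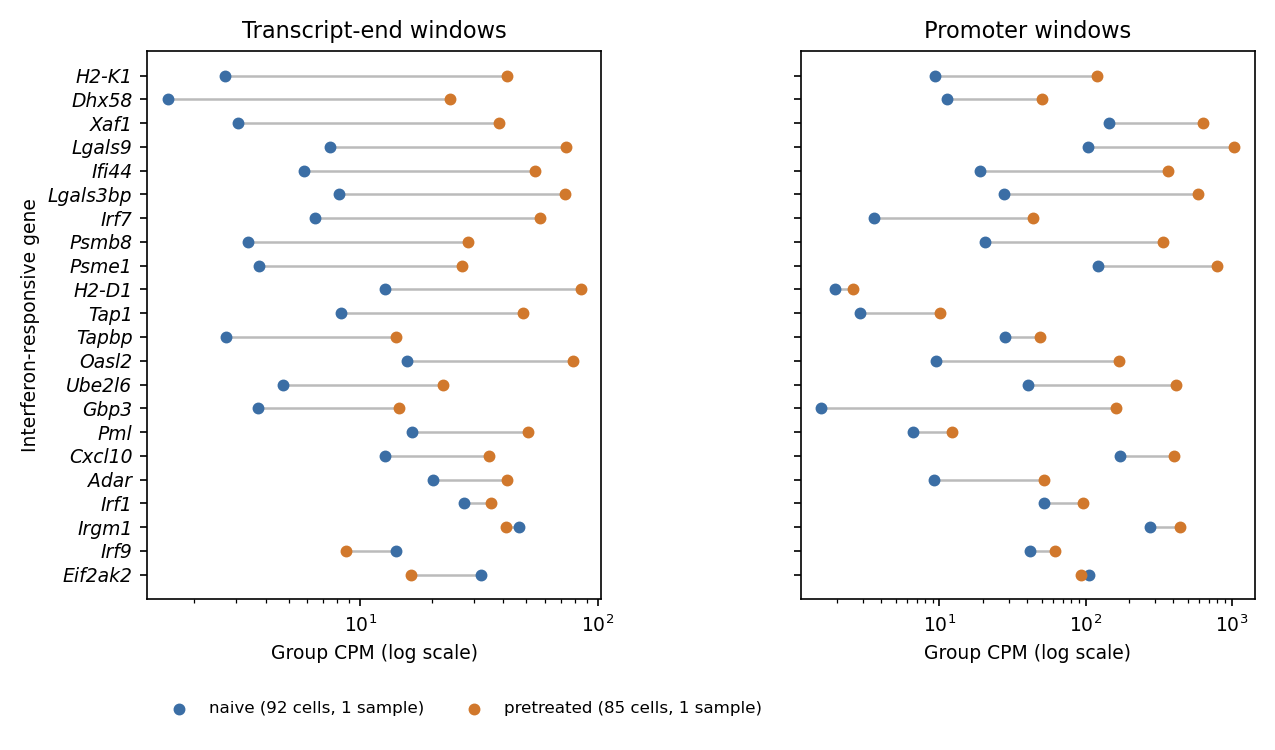
Group CPM on a log scale in transcript-end windows (left) and promoter windows (right) for the 22 interferon-responsive genes past the filter, ordered by the log2 ratio at their ends; each point is 1 group, with no replicate. At the ends, 18 of the 22 are over 2-fold higher in pretreated cells (17 with the shift of 0.36 taken off), and Irgm1, Irf9 and Eif2ak2 lie below their naïve value. Of the 18, all but Pml passed the filter through the pretreated group alone.

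Lgals9, coding for the lectin galectin-9, had end tags in 12 of 92 naïve cells (13.04%, interval 6.93 to 21.7) and 76 of 85 pretreated cells (89.4%, 80.8 to 95.04). The cells ran from 0 to 238 CPM with a median of 0 in naïve cells, and from 0 to 289 CPM with a median of 65.8 in pretreated cells. The group values were 7.47 and 73.4 CPM, a log2 ratio of 3.30. At its promoter windows the values were 104 and 1042 CPM. Of the gene's tags over all window classes, 5.94% of the naïve and 6.13% of the pretreated ones lay at its ends.

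The regulators and sensors Irf7, Dhx58 and Pml were among the 18, and the regulators Irf1 and Irf9 were not. Irf7, a transcription factor that amplifies interferon production, had end tags in 9 naïve and 67 pretreated cells, with 6.44 and 57.1 CPM. Its ends held 64.3% of the gene's naïve and 56.8% of its pretreated tags, more than its promoter. Dhx58, the RNA sensor LGP2, had end tags in 3 and 42 cells, with 1.55 and 23.8 CPM. Its log2 ratio of 3.94 became 5.19 without naïve cell 57. Pml, the organiser of nuclear bodies, had end tags in 24 and 60 cells, with 16.6 and 50.8 CPM, and 70.6% of its pretreated tags were at ends.

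Oasl2, Xaf1, Ifi44 and Cxcl10 were also among the 18. Oasl2, an oligoadenylate-synthetase-like gene, had end tags in 10 naïve and 77 pretreated cells, with 15.7 and 78.3 CPM, and its log2 ratio of 2.32 became 3.06 without naïve cell 77. Xaf1, a pro-apoptotic factor, had them in 4 and 54 cells, with 3.05 and 38.4 CPM, and its log2 ratio of 3.65 became 4.51 without naïve cell 24. Ifi44 had them in 1 and 63 cells, with 5.80 and 54.4 CPM, so its naïve value came from 1 cell. Without that cell Ifi44 was listed at 0 in naïve cells, and no ratio is given. The chemokine gene Cxcl10 had end tags in 8 and 36 cells, with 12.7 and 34.8 CPM, and its log2 ratio of 1.46 became 3.63 without naïve cell 79.

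Of the genes that act in antigen presentation by class I molecules, H2-D1, H2-K1, Tap1, Tapbp, Psmb8 and Psme1 were among the 18. H2-D1, a class I heavy chain, had end tags in 10 naïve and 66 pretreated cells, with 12.7 and 84.5 CPM. At its promoter windows the values were 1.92 and 2.54 CPM, and the ratio there was 0.41 on the log2 scale against 2.74 at its ends, which became 3.49 without naïve cell 19. H2-K1 had end tags in 2 and 51 cells, Tap1, a peptide transporter subunit, in 9 and 44, and Psmb8, an immunoproteasome subunit, in 3 and 42. The H2-K1 ratio of 3.95 became 9.93 without naïve cell 19, the Psmb8 ratio of 3.08 became 5.75 without naïve cell 87, and the Psme1 ratio of 2.83 became 3.48 without naïve cell 5. The Gbp3 ratio of 1.97 became 3.34 without naïve cell 74, and the Ube2l6 ratio of 2.24 became 2.97 without naïve cell 13. Of the H2-D1 and H2-K1 words of 50 bases, 12.8% and 9.63% occur in other genes, among them other class I genes.

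The genes on the list past the filter that were not called were Irf1, Irgm1, Irf9 and Eif2ak2. Eif2ak2, the double-stranded-RNA-activated kinase PKR, had 32.3 naïve and 16.4 pretreated CPM, and a log2 ratio of -0.98 that became -1.33 without pretreated cell 74. Irf9, a subunit of the factor ISGF3, had 14.1 and 8.76 CPM. The transcription factor Irf1 had 27.3 and 35.6 CPM, with a log2 ratio of 0.39 that became -0.05 without pretreated cell 91. Irgm1, an immunity-related GTPase, had 46.5 and 41 CPM, with end tags in 39 and 63 cells and a log2 ratio of -0.18 that became 0.17 without naïve cell 78. Among the 18 called genes, Adar, the RNA-editing deaminase, had a ratio of 1.04 that became 0.32 without pretreated cell 74 and 1.73 without naïve cell 77.

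The end tags of the interferon list were spread over many positions, as were transcript-end tags as a whole. They fell into 1151 windows on the genes' own strand, of which 846 (73.5%) were listed by 1 cell. Over all transcript-end windows on either strand this share was 80.8%. Of the 1151, 5 were listed by 10 or more cells, and 1 by 30, the most for any. The end window with the most tags could be placed on a transcript for 12 of the 22 genes. It had GGG directly before the centre in 6 of them and a G in 9. The 4 lines below show both kinds at genes described above and at Psme1, a proteasome activator gene, with the capitals again marking the 3 bases before the centre.
Irf7, chr7:148449381-148449530, - strand: aggagtttcGGGctcggaggcggc
Psme1, chr14:56199817-56199966, + strand: ctaactgcaGGGtgactatcggca
H2-K1, chr17:34133206-34133355, - strand: gaagaactgTGGagcccagtccac
Lgals9, chr11:78776899-78777048, - strand: gtgaatattACCaccgcctgaaga
The Irf7 window was listed by 9 pretreated cells, the H2-K1 window by 15, the Lgals9 window by 5, and none of these 3 by a naïve cell. RefSeq placed the Lgals9 window in an exon, the H2-K1 window in a 3′ UTR, and the Irf7 and Psme1 windows at a transcript end.

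The gene Ifitm3, which codes for an antiviral membrane protein, had its leading end window on the opposite strand. The window chr7:148195486-148195635 on the + strand was listed by 0 of 92 naïve and 56 of 85 pretreated cells (65.9%, interval 54.8 to 75.8). In those cells it ran from 20.4 to 289 CPM with a median of 46.8. Of the Ifitm3 words of 50 bases, 10.0% occur in other genes.

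Ends of the 26 extracellular matrix genes together held 304 to 5948 CPM with a median of 1125 in naïve cells, and 490 to 3061 CPM with a median of 993 in pretreated cells. The cells of the groups overlapped. At promoter windows of the list the cell medians were 4957 and 6042 CPM. At their ends 10 genes passed the filter, 0 higher and 3 lower, near the 22.5% lower over all gene ends, and Sparc, Bgn and Thbs1 had log2 ratios of 0.39, 0.40 and 0.29. With the shift of 0.36 taken off, 0 were higher and 4 lower, and the Thbs1 ratio turned negative. Sparc, coding for a collagen-binding matrix protein, had the most end tags of the list: 92 of 92 naïve cells had 40.7 to 1799 CPM (median 533) and 85 of 85 pretreated cells 162 to 2408 CPM (median 671). Timp2, a metalloproteinase inhibitor, had 0 to 1933 CPM (median 219) in naïve and 0 to 444 CPM (median 56.9) in pretreated cells. Its group values were 277 and 75.6 CPM, and 65.03% of its naïve tags but 26.2% of its pretreated tags were at ends. Lox and Postn, a collagen cross-linking enzyme and periostin, had ratios of -1.01 and -1.09 that became -0.91 and -0.95 without naïve cells 69 and 18. Col5a1, a fibrillar collagen chain, had 133 and 106 CPM, and 51.9% of its naïve tags were at ends. Without naïve cell 86 its ratio of -0.33 became -0.03.

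Of 80 cytosolic ribosomal protein genes 44 had end tags. Over the whole list the ends held 0 to 1031 CPM with a median of 157 in naïve cells, and 0 to 417 CPM with a median of 68.8 in pretreated cells, so the groups overlapped. The promoter windows of the list were lower in pretreated cells as well, with cell medians of 18432 and 11953 CPM. At their ends 7 genes passed the filter, 1 higher and 5 lower, while 22.5% of all gene ends were lower. The 5 lower genes passed through the naïve group alone. That favours a lower ratio without setting its size, so they do not stand for the list. Rplp0, a stalk protein, had end tags in 49 of 92 naïve and 4 of 85 pretreated cells, with 45.95 and 1.496 CPM, and its log2 ratio of -4.94 became -5.90 without pretreated cell 40. Rps2 had end tags in 23 naïve cells, with 11.1 CPM, and was listed at 0 in pretreated cells. Rps19 was the one higher, with 8.15 and 28.5 CPM in 23 and 39 cells. Many of these genes have near-identical copies: 33.1% of the Rplp0, 60% of the Rplp1 and 42.97% of the Rps2 words occur in other genes, against 8.52% for Rps14 and 3.21% for Rps3. The Rplp1 ratio of -3.07 became -3.75 without pretreated cell 4, and the Rps14 ratio of -3.24 became -4.07 without pretreated cell 7. The part of these copies in the result was not tested. Of 43 histone genes 11 had end tags and 0 passed the filter, with 38.3 naïve and 16.7 pretreated CPM in all.

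For most genes the ends held a small share of the tags on the gene's strand. In both groups, 7226 genes reached 1000 tags, and 4537 of them had end tags, with a median of 5.82% of the gene's tags in naïve and 5.14% in pretreated cells. For 199 genes both groups had over 50% of their tags at ends. Lmnb2 had 99.9 and 99.98%, from the windows inside Timm13, and Wdr45 had 95.6 and 97.3%, from the windows at the Praf2 start. Snora75 had 99.8% in both groups, Lrp1 67.9 and 83.3%, and Lmna 56.9 and 68.2%. Hsp90b1, a chaperone of the endoplasmic reticulum, had 51.4 and 54.5%, and Flna, the actin cross-linker filamin A, had 51.2 and 52.6%.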

How the data were processed

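The deposited files held 1 HOMER peak list per cell and 3 tables annotating the same windows, on mm9. Bowtie2 and HOMER are named in the submitters' processing notes; versions are not given in the sources used here. Per the file headers, the peak signal is a tag count normalised to a total of 10000000, and it was turned back into whole tags. The deposited focus ratio is a fraction from 0 to 1, as HOMER wrote it. The deposited distances to the nearest start are in bp. Of the unnamed per-cell columns in 2 further deposited tables, 384 were not used.

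Peaks joined a window when their start lay within 2 bp of the window's. Cells under 10% of the median total were left out (4 naïve, 11 pretreated), and no cell repeated another's totals. Transcript strands and symbols came from GENCODE vM21 (15225 of 17146 named transcripts, 88.8%). A distance-based strand was the same in 99.7% of transcripts checked by both. The tables' build has no genome here, so bases were read by offset from starts of same-version vM21 transcripts. The log2 ratio of CPM had 0.5 tag added to each sum. It was run on simulated tags of 2828 windows, of which 200 were changed by well over 2-fold (Python 3.11.15, pandas 2.3.3). The run called 100% of the changed and 0% of the other windows. It held counting error alone and no spread between cells, so it checks the arithmetic and not the calls in these data. Gene copies were sought as 50-base words shared between GENCODE vM21 transcripts.

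Intervals are exact 95% binomial ones. Windows were named by abundance (10 highest), by ratio (5 highest and lowest listed in both groups), by strand (5 highest each, with no RefSeq start within 100 bp), and from the gene lists when 20% or more of either group's cells listed them. Members and lists were chosen with earlier results of these data known. Gene-end sums per gene, the base counts, the share of gene tags at ends and the removal of single cells were added after the data were seen. Genes named among those with the most end tags, and Irf7, Psme1 and others among the list genes past the filter, were chosen after their values were seen. The alternatives tried changed the cell filter, peak size, annotation, scaling, pseudocount, filters and joining of windows.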

Additional observations from a re-analysis of the deposited data

How the results depend on the processing

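With 1 sample per group, no difference had a test or a check between cultures, and rare windows are limited by the caller's minimum. No paired analysis was possible because the cell numbers only name cells of 2 separate groups. The balance of called windows turned when windows were joined within 50 bp, from 43 higher and 64 lower to 192 higher and 110 lower. The share of tags at transcript ends (pretreated minus naïve) was -0.887 percentage points. It was -0.882 with no cell left out, -0.877 with cells under 30% of the median total left out, -0.878 for peaks of at least 20 tags, -0.903 without the cell with the most transcript-end tags of each group, -0.654 as a percent of listed tags and -0.152 with the RefSeq table's ends. Without both repeated-sequence transcripts, an alternative chosen after seeing the data, it was -0.647.

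Tags on the named strand averaged 79.9% over the groups. The share was 79.83% without those top cells, 79.65% for windows listed by at least 2 cells, 77.9% by peaks, and 79.85% with strands also taken from the distances. Tags at windows with a RefSeq start averaged 1.01%. They were 1.03% without the top cells, 0.867% within 50 bp and 4.59% within 250 bp, and 0.246% as a share of windows. The focus ratio (pretreated minus naïve) was -0.009. It was -0.014 with no cell left out, -0.011 with the 30% limit, -0.010 at 20 tags and -0.075 as a mean weighted by tags. With windows joined within 50 bp, 602 sites in place of 142 windows were listed by 20% of the cells of either group, and 302 were called in place of 107. At a minimum of 50 CPM 43 windows were called, 16 higher and 27 lower, and 7 interferon gene ends were higher in place of 18. The other alternatives for the called windows gave 100 to 121, and those for interferon gene ends 17 to 20.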
